A study of Mus musculus with 24 samples.

Results

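The circadian clock and its immediate output, as 10 genes, were followed across 24 small intestine libraries. The 10 genes were chosen by symbol from the 55536 genes of the deposited count table, and all 10 were among the 13505 genes with enough reads to test. They were *Arntl*, *Npas2*, *Per1*, *Per2*, *Per3*, *Nr1d1*, *Nr1d2*, *Dbp*, *Tef* and *Hlf*. Because these genes were selected on their levels per library across the groups and replicate numbers, those levels and contrasts are given as a description and no test is read from them. The libraries were made from total RNA of the distal small intestine (ileum) of C57BL/6N mice, 1 animal each, with 3 females and 3 males in each of 4 groups. The CD group ate a control diet with 10% of its energy as fat and the HFD group a high-fat diet with 60%. The CDmetf and HFDmetf groups ate the same diets and also received metformin at 50 mg per kg of body mass per day in the drinking water, for the last 10 of 30 weeks. No genotype other than the strain is labelled, and the time of day at which each animal was sampled is not given in the sources used here. Libraries are named by group, sex and replicate number, so that CDmetf F2 is the library labelled as the second female replicate of the CDmetf group.

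The mammalian clock is a loop of transcription factors. *Arntl* (also called *Bmal1*) and *Npas2*, a partner that can stand in for *Clock*, encode activators that bind E-boxes and switch on the *Per* genes, *Nr1d1*, *Nr1d2*, *Dbp*, *Tef* and *Hlf*. PER proteins, together with CRY proteins, then hold the activators back. *Nr1d1* and *Nr1d2* encode the REV-ERB repressors, which act on ROR elements of *Arntl* and *Npas2*. *Dbp*, *Tef* and *Hlf* encode the PAR bZIP activators, which bind D-boxes and carry the rhythm to metabolic genes. In intestine, as in liver, *Arntl* and *Npas2* are known to peak when *Dbp* and the *Per* genes are low.

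Promoter windows of 250 bases before and 50 bases after a transcription start were found for 9 of the 10 genes, in 12 windows (RefSeq sequences on GRCm38.p6). They were searched on both strands for an E-box (CACGTG), its close variant CACGTT, a D-box (TTATGTAA) and the core of a ROR element (TAGGTCA), none of which overlapped in these windows. The windows of *Arntl*, *Per1*, *Per3*, *Nr1d1* and *Tef* held at least 1 of them. For each of these genes 1 window is printed 5′ to 3′ with the motif letters in capitals, since these are the letters the text turns on. The places are chr7:113207261-113207560 on the plus strand for *Arntl*, chr11:69098699-69098998 on the plus strand for *Per1*, chr4:151044616-151044915 on the minus strand for *Per3*, chr11:98775328-98775627 on the minus strand for *Nr1d1* and chr15:81811164-81811463 on the plus strand for *Tef*.
Arntl: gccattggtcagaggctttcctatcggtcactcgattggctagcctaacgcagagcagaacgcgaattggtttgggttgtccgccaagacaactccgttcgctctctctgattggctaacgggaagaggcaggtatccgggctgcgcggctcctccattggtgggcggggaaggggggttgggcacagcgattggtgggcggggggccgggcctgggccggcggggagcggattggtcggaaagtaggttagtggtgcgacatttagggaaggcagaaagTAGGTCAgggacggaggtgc
Per1: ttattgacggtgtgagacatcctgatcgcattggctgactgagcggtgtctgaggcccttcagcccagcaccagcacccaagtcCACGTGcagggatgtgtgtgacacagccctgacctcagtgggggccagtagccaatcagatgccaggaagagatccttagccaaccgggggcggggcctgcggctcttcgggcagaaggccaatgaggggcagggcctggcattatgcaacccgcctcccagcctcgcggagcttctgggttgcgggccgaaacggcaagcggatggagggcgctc
Per3: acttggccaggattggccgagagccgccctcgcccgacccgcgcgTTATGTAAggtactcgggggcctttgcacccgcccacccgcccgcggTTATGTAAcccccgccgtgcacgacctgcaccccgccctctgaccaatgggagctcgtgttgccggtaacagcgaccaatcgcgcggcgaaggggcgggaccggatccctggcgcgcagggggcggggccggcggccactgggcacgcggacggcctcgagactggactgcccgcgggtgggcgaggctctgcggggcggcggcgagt
Nr1d1: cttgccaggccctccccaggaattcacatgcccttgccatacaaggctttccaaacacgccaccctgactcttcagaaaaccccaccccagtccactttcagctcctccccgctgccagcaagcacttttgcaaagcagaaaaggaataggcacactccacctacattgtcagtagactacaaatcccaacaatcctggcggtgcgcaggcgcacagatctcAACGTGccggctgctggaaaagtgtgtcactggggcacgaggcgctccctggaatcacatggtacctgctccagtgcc
Tef: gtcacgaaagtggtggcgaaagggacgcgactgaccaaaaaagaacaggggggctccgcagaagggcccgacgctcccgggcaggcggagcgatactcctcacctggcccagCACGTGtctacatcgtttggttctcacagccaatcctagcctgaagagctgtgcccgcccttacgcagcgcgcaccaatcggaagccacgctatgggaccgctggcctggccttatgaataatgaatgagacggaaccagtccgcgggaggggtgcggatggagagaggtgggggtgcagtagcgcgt
The *Arntl* window held TAGGTCA starting 31 bases into the transcript. The *Per1* window held CACGTG starting 166 bases before the start, and both *Tef* windows held 1 such E-box, at 138 bases before the start in the one printed. *Nr1d1* held the variant CACGTT, read on the opposite strand, 28 bases before the start. *Per3* held 2 D-boxes, 205 and 158 bases before the start. Of all 32851 promoter windows of this length, 7.15% held CACGTG, 4.69% held CACGTT, 0.938% held TTATGTAA and 2.61% held TAGGTCA. A match is a description of the letters and not a measured binding site.

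On GRCm38 the genes lie at chr7:113207465-113314126 (*Arntl*), chr1:39193731-39363236 (*Npas2*), chr11:69095217-69109960 (*Per1*), chr1:91415982-91459324 (*Per2*), chr4:151003652-151044665 (*Per3*), chr11:98767932-98775333 (*Nr1d1*), chr14:18204054-18239127 (*Nr1d2*), chr7:45705088-45710203 (*Dbp*), chr15:81802421-81826863 (*Tef*) and chr11:90336536-90390895 (*Hlf*). Exons of *Dbp* share 539 bases with *Sphk2* on the opposite strand, 18.01% of the annotated exon bases of *Dbp*. Exons of *Nr1d1* share 263 bases, 8.55%, with *Thra* on the opposite strand. The strand setting of the authors' counting is not given in the sources used here, so reads from these stretches cannot be assigned with certainty.

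The libraries held between 1829690 and 40606400 reads on genes, so that a count of 3 reads, used here as the floor of detection, was worth 0.0722 to 1.65 CPM (the read count of a gene relative to the TMM-scaled size of its library). In CD M3 the 10 most abundant genes took 85.4% of the reads on genes, and in HFDmetf F2 they took 36.6%. The summed level of 3 ileal markers (*Fabp6*, *Slc10a2* and *Fgf15*) ranged from 5.89 CPM in HFD M3 to 3589 CPM. Of the replicates numbered 2, those labelled HFD M2 and HFD F2 went against their sex labels: HFD M2 had 3355 reads of *Xist* and 0 on Y-linked genes, and HFD F2 had 1 read of *Xist* and 423 on Y-linked genes. The ranges and correlations of the members, the mean index of CD and HFD, the genes that followed the index and those most like it are therefore given also without these 3 libraries (CD M3, HFD M2 and HFD F2). No 2 libraries of a group agreed within sampling noise.

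To place each library on 1 scale, a clock phase index was computed as the mean log2 CPM of *Arntl* and *Npas2* minus the mean log2 CPM of *Dbp*, *Per1*, *Per2* and *Per3*. A high index means much *Arntl* and *Npas2* beside little *Dbp* and *Per*. It ran from -2.59 in CD M1 to 3.39 in CDmetf F2, a span of 5.98 log2 units, with an SD of 1.85 over the 24 libraries. In these bulk samples, fewer cells that express a gene and less RNA of it per cell cannot be told apart.

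The 2 activators of the loop were high together. *Arntl* was lowest in HFD M3 at 5.47 CPM, had a median of 23.8 CPM and was highest in CDmetf F2 at 74.2 CPM, a 13.6-fold range. *Npas2* was lowest in HFDmetf F2 at 14.3 CPM, had a median of 42.7 CPM and was highest in CDmetf F2 at 113 CPM, a 7.90-fold range. Across the 24 libraries *Arntl* and *Npas2* had a Spearman rho of 0.77. They parted in HFDmetf M3, where *Npas2* was 102 CPM, its second highest level, and *Arntl* was 35.4 CPM, below 6 other libraries.

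**Figure D1:**
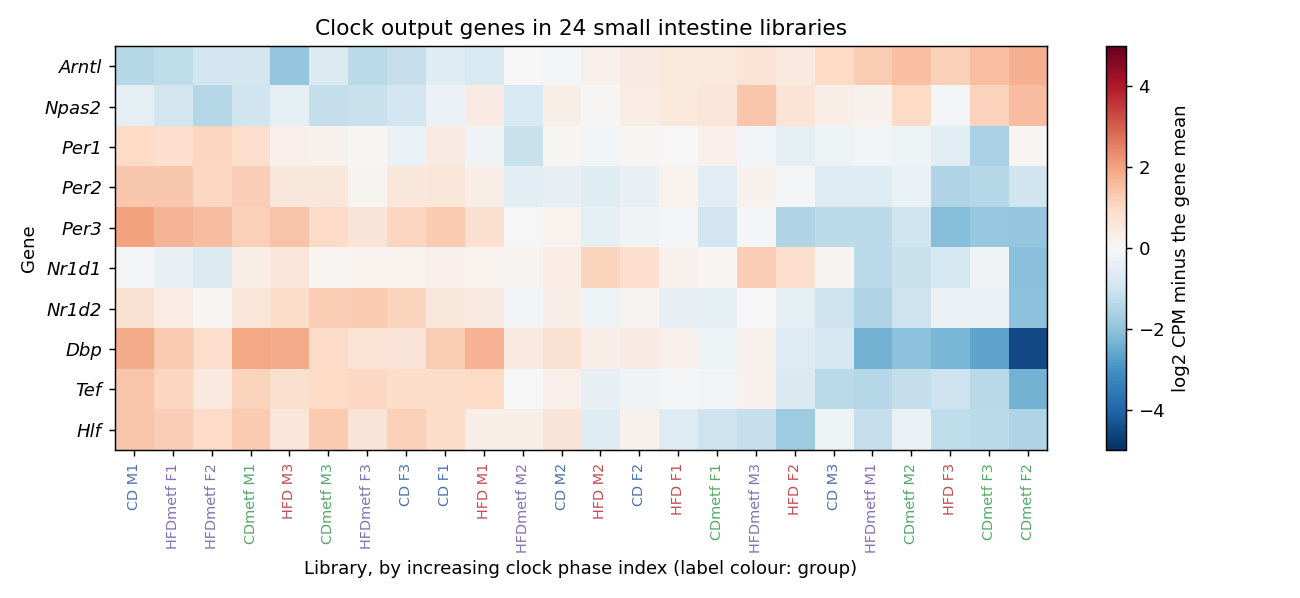
Heat map of the 10 clock output genes (rows) in the 24 libraries (columns, ordered by increasing clock phase index, label colour by group). Colour is the log2 CPM of the gene in that library minus the gene's mean over the 24 libraries. *Arntl* and *Npas2* pass from blue to red as the index passes from -2.59 to 3.39 while *Per2*, *Per3*, *Nr1d2*, *Dbp*, *Tef* and *Hlf* pass from red to blue, and the 4 highest levels of *Nr1d1* lie at an index of 0.26 to 1.16.

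The *Per* genes encode the repressors of the loop and were low where *Arntl* was high. *Per3* was lowest in HFD F3 at 6.00 CPM, had a median of 25.8 CPM and was highest in CD M1 at 106 CPM, a 17.7-fold range. *Per2* ran from 16.04 CPM in HFD F3 through a median of 45.9 CPM to 115 CPM in CD M1, a 7.18-fold range. *Per1*, which besides the clock responds to glucocorticoids and other acute signals, varied least of the 10 members on the log2 scale (SD 0.61), from 11.6 CPM in CDmetf F3 to 75.3 CPM in HFDmetf F2. *Per1* was 37.8 CPM in CDmetf F2, the library with the highest *Arntl*, which is close to its median of 35.98 CPM.

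*Dbp*, a strong direct target of the activators in many tissues, had the widest range of the members (SD 1.67 on the log2 scale). It was highest in CDmetf M1 at 85.2 CPM, had a median of 30.7 CPM, and in CDmetf F2 it was counted with 3 reads, 0.894 CPM, with an exact Poisson 95% interval of 0.184 to 2.61 CPM that covers counting error only. In 5 libraries *Dbp* was under 6 CPM: CDmetf F2, CDmetf F3 (3.56 CPM), HFDmetf M1 (4.30 CPM), HFD F3 (4.54 CPM) and CDmetf M2 (5.27 CPM). These 5 libraries came from 3 groups and had the 5 highest *Arntl* levels, between 49.8 and 74.2 CPM.

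The other PAR bZIP genes followed *Dbp* with smaller ranges. *Tef* ran from 14.3 CPM in CDmetf F2 through a median of 79.4 CPM to 194 CPM in CD M1, a 13.5-fold range. *Hlf* ran from 4.43 CPM in HFD F2 through a median of 18.4 CPM to 40.3 CPM in CD M1, a 9.11-fold range. Spearman rho with the index, which used neither gene, was -0.92 for *Tef* and -0.91 for *Hlf* over 24 libraries, but the genes were counted in the same libraries, so this is given as a description.

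The REV-ERB genes differed from each other. *Nr1d2* was lowest in CDmetf F2 at 20.6 CPM, had a median of 87.1 CPM and was highest in HFDmetf F3 at 211 CPM, with a rho of -0.83 with the index. *Nr1d1* was also lowest in CDmetf F2, at 24.4 CPM, with a median of 116 CPM, but its rho with the index was only -0.22. Its highest levels lay in libraries of intermediate index: 244 CPM in HFDmetf M3 (index 0.89), 226 CPM in HFD M2 (index 0.26), 195 CPM in HFD F2 (index 1.16) and 187 CPM in CD F2 (index 0.31). In CD M1, at the low end of the index, *Nr1d1* was 102 CPM, and in HFDmetf F2 (index -2.45) it was 66.0 CPM. Other libraries at the low end had more, with 158 CPM in HFD M3 (index -2.35) and 132 CPM in CDmetf M1 (index -2.39). Without CD M3, HFD M2 and HFD F2 the rho of *Nr1d1* with the index was -0.27.

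**Figure D2:**
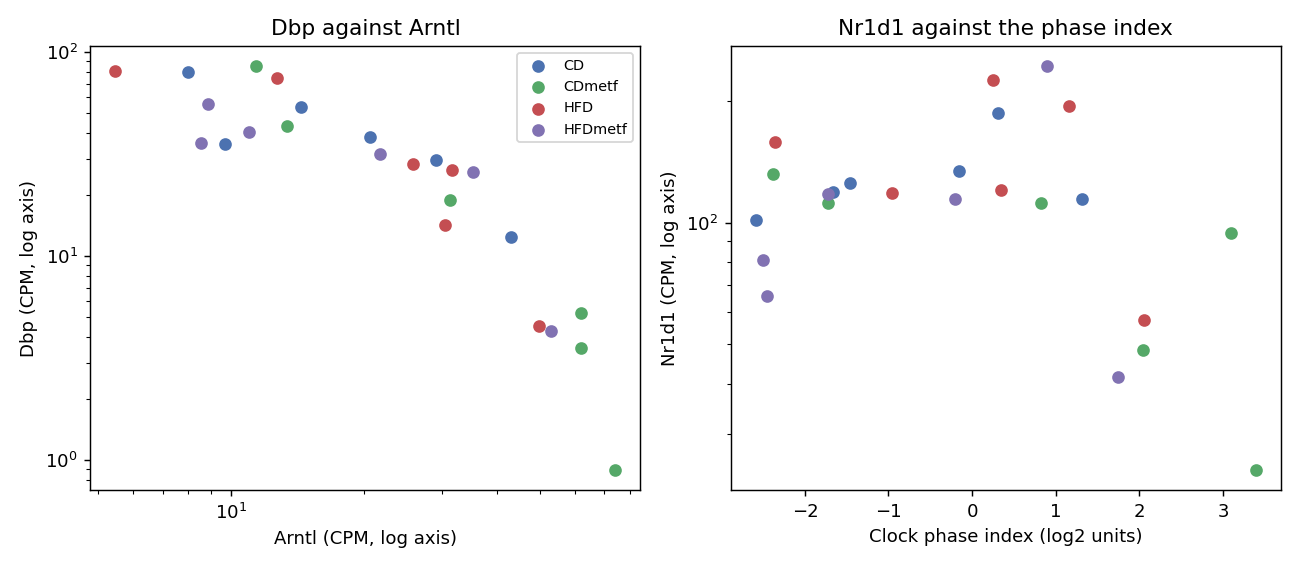
Left, *Dbp* against *Arntl* in CPM on log axes, 1 point per library, coloured by group. Right, *Nr1d1* in CPM (log axis) against the clock phase index in log2 units. *Dbp* is between 35.3 and 85.2 CPM in the 10 libraries where *Arntl* is under 15 CPM and 0.894 CPM where *Arntl* is 74.2 CPM, and *Nr1d1* reaches its 4 highest levels between an index of 0.26 and 1.16.

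Setting *Nr1d1* aside, the other 9 members form 36 pairs. The 22 pairs within a side of the loop (*Arntl* with *Npas2*, or any 2 of the *Per*, *Nr1d2* and PAR bZIP genes) had Spearman rho between 0.41 and 0.93 over 24 libraries. The 14 pairs across the sides had rho between -0.92 and -0.43. Over the 21 libraries without CD M3, HFD M2 and HFD F2, these ranges were 0.36 to 0.94 and -0.91 to -0.43. The lowest and highest levels of the members lay in other libraries than these 3, except that of *Hlf*, whose range without them was 7.52-fold, from 5.36 CPM in CDmetf F2. The pairs of *Nr1d1* with the other members had rho between -0.30 and 0.37. The members share library, depth and scaling in these values. Beside the 9590 genes with a mean of at least 3 on the log2 CPM scale, the median SD of the members over the 24 libraries was 0.95 log2 units and that of all these genes was 0.34. After group, sex and replicate number were taken out, these medians were 0.96 and 0.30.

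The first question of the design was whether diet or metformin moved the members. Every group held libraries from much of the range of the index. CD had -0.71 ± 1.45 (SD, n = 6), CDmetf 0.88 ± 2.45, HFD 0.08 ± 1.56 and HFDmetf -0.71 ± 1.79. Without CD M3, CD had -1.11 ± 1.18 (SD, n = 5), and without HFD M2 and HFD F2, HFD had -0.23 ± 1.88 (SD, n = 4). For none of the 10 members did the 6 libraries of a group lie apart from those of the group it was compared with. Among all 13505 genes, the groups of 6 lay apart for 0.0740% in HFD vs. CD, for 0.170% in HFDmetf vs. CDmetf, for 0.0444% in HFDmetf vs. HFD and for 0.163% in CDmetf vs. CD, so that a count of 0 in 10 members lies near the background. *Arntl* had a lowest, median and highest level of 7.98, 17.5 and 43.1 CPM in CD, of 11.4, 46.7 and 74.2 CPM in CDmetf, of 5.47, 28.2 and 49.8 CPM in HFD and of 8.56, 16.4 and 52.9 CPM in HFDmetf. *Dbp* had 12.3, 36.9 and 80.0 CPM in CD, 0.894, 12.1 and 85.2 CPM in CDmetf, 4.54, 27.4 and 80.3 CPM in HFD and 4.30, 33.8 and 55.8 CPM in HFDmetf. For both genes the ranges of all groups thus overlapped, though *Dbp* in CD did not fall below 12.3 CPM.

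**Figure D3:**
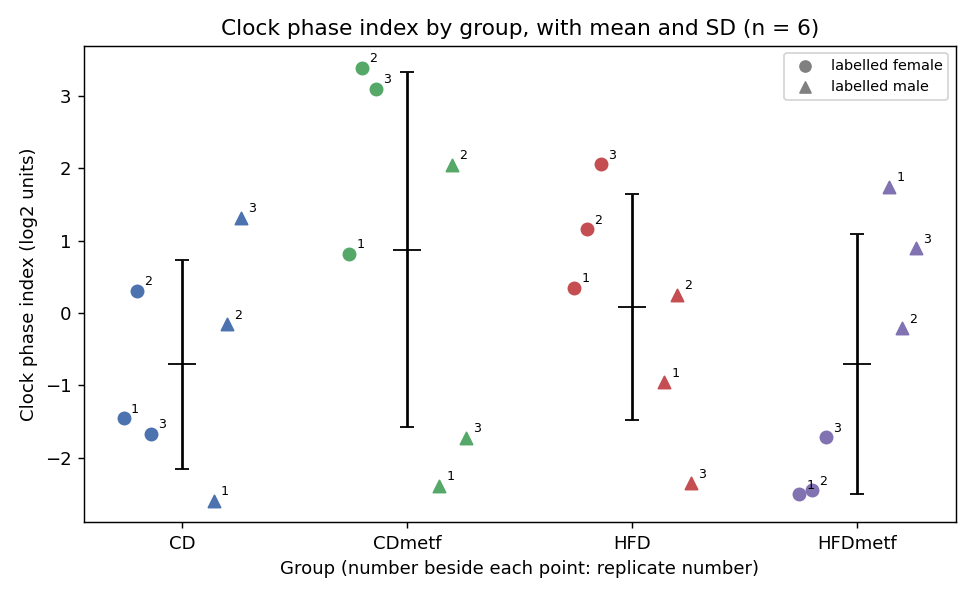
Clock phase index (log2 units) of each library by group, circles for libraries labelled female and triangles for those labelled male, with the replicate number beside each point and the group mean ± SD (n = 6) in black. The 4 groups overlap, while the 3 CDmetf females lie above the 3 CD females and the 3 HFDmetf females lie below the 3 HFD females.

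In the quasi-likelihood fit of edgeR, with p-values adjusted to a false discovery rate (FDR), 0 of the 10 members passed an FDR of 0.05 for diet (HFD vs. CD and, under metformin, HFDmetf vs. CDmetf), for metformin (CDmetf vs. CD and HFDmetf vs. HFD) or for the diet by metformin interaction. In each of these 5 tests 0% of the 13505 genes passed. DESeq2 called 12 genes of the whole table in HFD vs. CD, 4 in CDmetf vs. CD, 4 in the interaction and 0 in the other 2 tests, and limma-voom called 0 in each. At an unadjusted p under 0.05, 1 member (*Hlf*) stood in HFD vs. CD, where 4.75% of all genes did, and 2 members (*Per3* and *Hlf*) in the interaction, where 5.76% did. No member did so in HFDmetf vs. CDmetf (7.55% of all genes), HFDmetf vs. HFD (6.87%) or CDmetf vs. CD (5.00%). The members were chosen with these contrasts in view and nothing is read from the counts. The paper, by its own limma-voom fit, did report genes under an FDR of 0.05 in each of its diet and metformin contrasts. Its pathway genes for HFDmetf vs. CDmetf included *Bmal1*, the other name of *Arntl*. Why that fit differs from those given here was not tested.

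The differences between groups had wide errors. *Hlf* had a logFC of -1.29 (SE 0.51, FDR 0.995) in HFD vs. CD, with a lowest, median and highest level of 12.8, 26.8 and 40.3 CPM in CD and of 4.43, 10.0 and 23.1 CPM in HFD. In CDmetf vs. CD the logFC was 1.02 (SE 0.58) for *Arntl*, 0.71 (SE 0.47) for *Npas2*, -1.18 (SE 0.71) for *Dbp* and -1.08 (SE 0.63) for *Per3*. In HFDmetf vs. HFD it was -0.15 (SE 0.61) for *Arntl*, 0.36 (SE 0.72) for *Dbp* and 1.01 (SE 0.66) for *Per3*. The interaction, which is the HFD metformin difference minus the CD metformin difference, was 2.09 (SE 0.95) for *Per3*, 1.79 (SE 0.75) for *Hlf* and -1.17 (SE 0.86) for *Arntl*. CDmetf vs. CD and the interaction share their control libraries, so these values are not independent.

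Within the animals labelled female the groups lay apart. The index was -1.46, 0.31 and -1.66 in the 3 CD females and 0.82, 3.39 and 3.10 in the 3 CDmetf females. It was 0.35, 1.16 and 2.05 in the 3 HFD females and -2.50, -2.45 and -1.72 in the 3 HFDmetf females. Metformin thus went with a mean index higher by 3.37 on CD and lower by 3.41 on HFD in females, with the sexes as labelled. The HFD value of 1.16 is that of HFD F2, which carried Y-linked reads. With HFD M2 (0.26) in its place the HFD females would still lie above the HFDmetf females. In males the index was -2.59, -0.16 and 1.32 in CD, -2.39, 2.05 and -1.72 in CDmetf, -0.96, 0.26 and -2.35 in HFD and 1.74, -0.21 and 0.89 in HFDmetf, and CDmetf overlapped CD in every member, as did HFDmetf and HFD.

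The single genes show the same split. *Arntl* was 14.4, 29.0 and 9.69 CPM in CD females and 31.3, 74.2 and 62.1 CPM in CDmetf females, then 31.6, 30.6 and 49.8 CPM in HFD females and 8.85, 11.0 and 8.56 CPM in HFDmetf females. *Per3* was 66.4, 23.4 and 55.4 CPM in CD females and 13.7, 6.85 and 7.10 CPM in CDmetf females, then 24.99, 9.31 and 6.00 CPM in HFD females and 85.2, 77.5 and 41.02 CPM in HFDmetf females. *Hlf* was 29.5, 17.8 and 34.8 CPM in CD females and 7.503, 5.36 and 6.08 CPM in CDmetf females, then 9.94, 4.43 and 6.30 CPM in HFD females and 35.9, 30.2 and 24.4 CPM in HFDmetf females. In each of these 3 genes the CDmetf females lay apart from the CD females, and the HFDmetf females lay apart from the HFD females in the opposite direction.

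**Figure D4:**
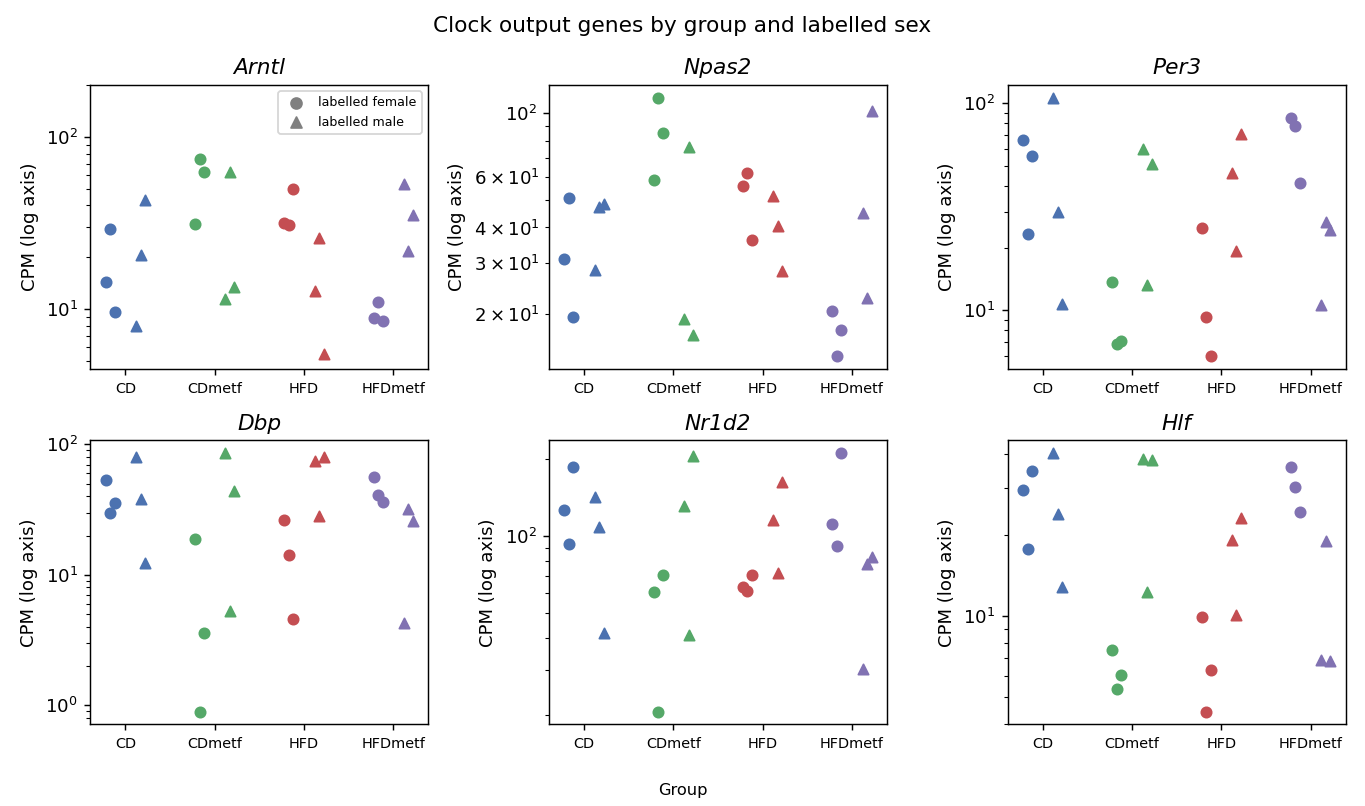
CPM (log axis) of *Arntl*, *Npas2*, *Per3*, *Dbp*, *Nr1d2* and *Hlf* by group, 1 point per library, circles for libraries labelled female and triangles for those labelled male. In females, metformin went with more *Arntl* and *Npas2* on CD and less on HFD, and the reverse for the other 4 genes, with no overlap between the 3 libraries of each pair of groups, whereas the males overlap.

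Over the 10 members, 8 did not overlap between CDmetf and CD females, where 7.97% of the 13505 genes did not, and 8 did not between HFDmetf and HFD females, where 4.14% did not. Of the members, 6 (*Arntl*, *Npas2*, *Per3*, *Nr1d2*, *Dbp* and *Hlf*) lay apart in both, in opposite directions, beside 0.615% of all genes. The members were chosen on these levels, and all but *Nr1d1* rose and fell together or in opposition across the libraries. The 6 are therefore not independent of each other, and the member counts given here are a description beside the shares of all genes. In males 0 members lay apart, beside 8.29% of all genes for CDmetf and CD, 7.15% for HFDmetf and HFD, and 0.252% for both in opposite directions. HFD F2 carried Y-linked reads, but the same 6 members lay apart without that library (0.822% of all genes) and with the sex of HFD M2 and HFD F2 exchanged (0.511%).

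In an edgeR fit with the 8 groups of sex, diet and metformin, 9 members stood at an unadjusted p under 0.05 in the interaction within females, where 6.55% of all genes did, with logFC between -3.74 (SE 0.86) for *Arntl* and 4.93 (SE 0.95) for *Per3*. In males 0 members did, beside 3.74%. For the difference between the sexes 9 members did, beside 4.49%. In these 3 tests 0% of the 13505 genes passed an FDR of 0.05, with *Hlf* at an FDR of 0.0648 in females being the smallest of the table. With the sex of HFD M2 and HFD F2 exchanged, 0 genes passed in each of the 3 tests. The other tools and filters gave more calls in females. DESeq2 called 33 genes, 6 of them members (*Arntl*, *Npas2*, *Per2*, *Per3*, *Tef* and *Hlf*), and 16 genes for the difference between the sexes. Limma-voom called 2 genes in females, *Hlf* among them (FDR 0.00562). With no filter on low counts edgeR called 63 of 36824 genes, 8 of them members (all but *Per1* and *Nr1d1*). *Hlf* also passed with at least 10 counts in every library (FDR 0.0291) and without CD M3, CDmetf M2, HFDmetf M1 or HFDmetf M2 (FDR 0.00267 to 0.0306). The direction of each called member was the same in all of these fits. This fit and its alternatives were added after the values were seen, on contrasts the members were chosen on, so the calls are given as a description.

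Other features of the same libraries were set beside this split. Of 11 summed marker lists and the reads on genes, none lay apart in opposite directions in females. Smooth muscle markers did on CD alone, at 2595 to 3517 CPM in CD females and 2024 to 2553 CPM in CDmetf females. Their part in the member levels was not tested.

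The members were next set beside sex and the replicate number. They were chosen with the replicate numbers in view, so the counts of members below are a description. Replicate numbers 1, 2 and 3 had an index of -0.87 ± 1.67, 0.54 ± 1.73 and -0.01 ± 2.09 (SD, n = 8), females 0.12 ± 2.08 and males -0.34 ± 1.66 (n = 12). Depth differed with the number. Libraries numbered 2 held 1829690 to 3466430 reads on genes, and those numbered 3 held 2296520 to 40384200. The part of depth in the differences between numbers was not tested. Of the 10 members 0 passed an FDR of 0.05 for the 3 replicate numbers compared together, where 16.8% of the 13505 genes passed. Likewise 0 passed for replicate 2 vs. 1 (0.111% of all genes), 3 vs. 1 (16.8%) and 3 vs. 2 (8.40%), for male vs. female (0.00740%) and for sex by replicate number (0%). The genes of 2 other clock lists, described below, were chosen with earlier results of these data known. For the replicate number, 2 of 17 tested core genes and 2 of 20 output genes passed, neither share above the 16.8% of all genes. These 4 were *Clock*, *Csnk1e*, *Por* and *Slc15a1*. *Clock*, the partner of *Arntl*, was higher in replicate 3 than in replicate 1 with a logFC of 0.37 (SE 0.08, FDR 0.00447). *Por*, the cytochrome P450 reductase, had an FDR of 0.0135 in the test over the 3 numbers.

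Genes outside the 10 were then tested against the index, with group, sex and replicate number in the same edgeR fit. This test was added after the data were seen. Of 13495 other genes, 23 passed an FDR of 0.05 (0.170%), 13 higher and 10 lower with a rising index. The 2 clock lists were a core list of 19 other genes and an output list of 20. They were chosen with earlier results of these data known. Of the core list 17 genes had enough reads, and 4 passed: 3 lower and 1 higher. The lists' shares of 4 of 17 and 1 of 20 stand beside the 0.170% over all other genes. The 2 core genes without enough reads were *Rorb* and *Arntl2*.

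*Ciart*, which encodes a repressor of CLOCK and ARNTL and peaks with *Dbp* in other tissues, had the steepest change, with -0.69 log2 units per unit of index (SE 0.07, FDR 1.03e-05). *Ciart* was 10.3 CPM in CD M1 and 1.49 CPM in CDmetf F2, with 3 reads in its lowest library, HFDmetf M1. *Nfil3*, a repressor that competes with the PAR bZIP proteins for D-boxes, rose by 0.42 per unit (SE 0.07, FDR 0.00403), from 3.41 CPM in CD M1 to 19.7 CPM in CDmetf F2. It was the only called core gene that moved with *Arntl*. *Cry2*, which encodes a partner of the PER proteins, changed by -0.20 per unit (SE 0.04, FDR 0.0110), from 35.1 CPM in CD M1 to 8.64 CPM in CDmetf F2. *Cipc*, a CLOCK-interacting inhibitor, changed by -0.20 per unit (SE 0.04, FDR 0.0120).

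*Cry1* did not pass, with 0.02 per unit (SE 0.08, FDR 0.965). Its 2 highest levels, 56.2 CPM in CDmetf M2 and 39.6 CPM in CDmetf F2, lay in libraries of high index, but in CDmetf F3, also of high index, it was 19.4 CPM. *Clock* ranged from 116 to 194 CPM over the 24 libraries, a 1.67-fold range, and had 0.02 per unit (SE 0.02, FDR 0.904). *Bhlhe41*, another repressor at E-boxes, was just outside the threshold with -0.27 per unit (SE 0.06, FDR 0.0562).

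**Figure D5:**
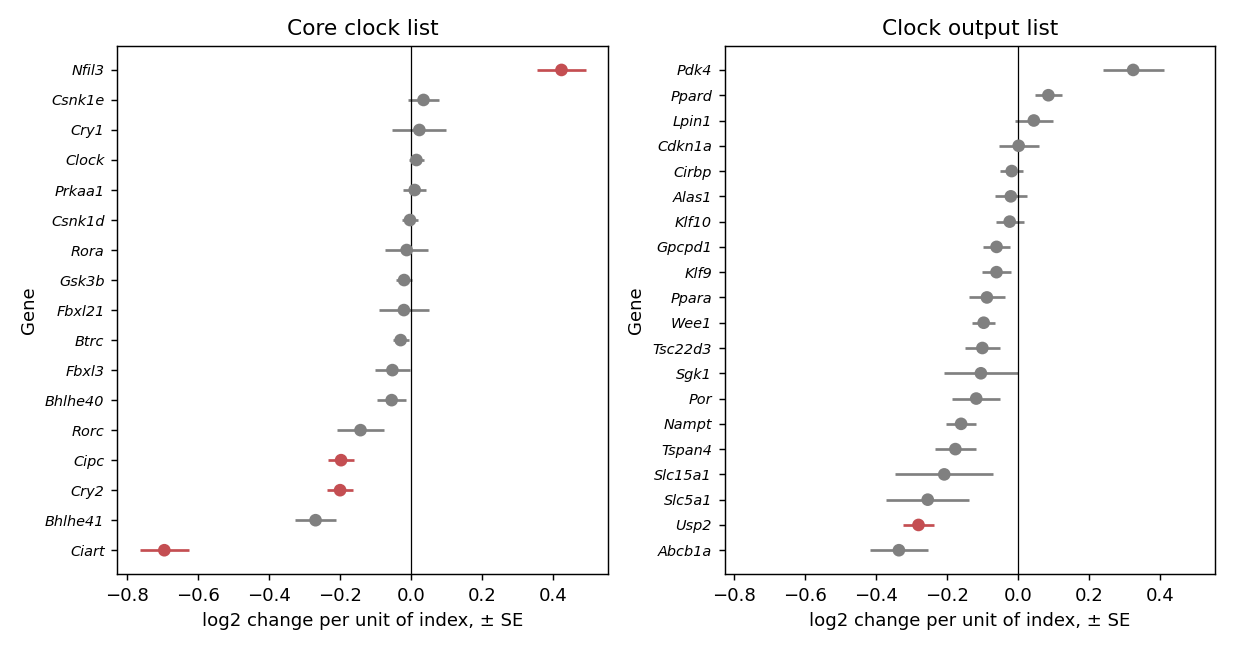
Change in log2 CPM per unit of clock phase index, with its SE, for the 17 tested genes of the core clock list (left) and the 20 genes of the clock output list (right), by edgeR. Red marks an FDR under 0.05: *Ciart*, *Cry2* and *Cipc* are lower and *Nfil3* is higher with a rising index in the core list, and *Usp2* is lower in the output list.

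Of the 20 output genes, 1 passed. *Usp2*, a deubiquitinating enzyme with a strong rhythm in many tissues, changed by -0.28 per unit (SE 0.04, FDR 0.00294), from 104 CPM in CD M1 to 36.6 CPM in CDmetf F2. The next smallest p-values of the output list missed the threshold: *Abcb1a*, the drug exporter P-glycoprotein, had -0.34 (SE 0.08, FDR 0.123), *Nampt*, of NAD synthesis, had -0.16 (SE 0.04, FDR 0.206) and *Pdk4*, which restrains pyruvate oxidation, had 0.32 (SE 0.09, FDR 0.206). The sugar carrier *Slc5a1* (SGLT1) had -0.26 (SE 0.12, FDR 0.695) and the peptide carrier *Slc15a1* (PEPT1) had -0.21 (SE 0.14, FDR 0.787).

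The other 18 called genes were in neither list. The 12 that were higher with a rising index, beside *Nfil3*, were *Dab1* (an adaptor of reelin signalling), *St5*, *Ypel2*, *Ier5*, *Nol4l*, *Cldn8* (a claudin of tight junctions), *Arrb1* (beta-arrestin 1), *Adamts4* (a matrix protease), *Glipr2*, *Fermt1* (kindlin-1, an integrin activator), *Spon2* and *Cpsf1*. The 6 that were lower, beside the 4 clock genes, were *Akr1c19*, *Car14* (a carbonic anhydrase), *Gm42684*, *Rev1* (a translesion DNA polymerase), *Herpud1* (of protein degradation at the endoplasmic reticulum) and *Rnf32*. *Dab1* had 0.37 per unit (SE 0.05, FDR 0.000697) and ran from 26.5 to 146 CPM. *Arrb1* had 0.13 per unit (SE 0.02, FDR 0.00649) and ran from 133 to 253 CPM.

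Leaving out 1 library at a time gave 8 to 29 called genes. The 8 were called without HFDmetf M1 (index 1.74), where *Cry2* had an FDR of 0.149. *Ciart*, *Usp2*, *Nfil3* and *Nol4l* passed in every alternative in which they were tested, with the members in each adjustment. For *Nol4l* the margin was narrow, with an FDR of 0.0497 when the index came from *Arntl* and *Dbp* alone. The largest FDR was 0.000357 for *Ciart*, 0.0253 for *Usp2* and 0.0283 for *Nfil3*. The least stable were *Cpsf1* (7 of 34 alternatives), *Rnf32* (9 of 34), *Herpud1* (16 of 34), *Spon2* (16 of 33) and *Rev1* (17 of 34). Without CD M3, HFD M2 and HFD F2, 20 genes were called, 14 of them among the 23.

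Among 9580 other genes of at least 3 on the mean log2 CPM scale, those whose levels were most like the index by Spearman rho over 24 libraries were *Dab1* (0.86), *Glipr2* (0.82), *Arrb1* (0.82), *Fermt1* (0.80) and *Ypel2* (0.80). The least like it were *Usp2* (-0.82), *Cry2* (-0.79), *Rev1* (-0.77), *Mapre2* (-0.75) and *Herpud1* (-0.74). In all, 21 of these genes had a rho beyond 0.7 in either direction. Over the 21 libraries without CD M3, HFD M2 and HFD F2, the 5 most like the index were *Arrb1* (0.88), *Dab1* (0.87), *Spon2* (0.84), *Glipr2* (0.84) and *Fermt1* (0.83). The 5 least like it were *Usp2* (-0.87), *Cracr2a* (-0.80), *Rev1* (-0.79), *Mapre2* (-0.79) and *Cry2* (-0.77).

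In the group contrasts 0 genes of the 2 lists passed the FDR. The smallest unadjusted p-values of the lists belonged to *Pdk4* in HFD vs. CD (logFC 1.44, SE 0.52, FDR 0.995), *Gsk3b* in HFDmetf vs. CDmetf (-0.29, SE 0.10, FDR 0.561), *Bhlhe41* in HFDmetf vs. HFD (1.05, SE 0.38, FDR 0.620) and *Cirbp* in CDmetf vs. CD (-0.44, SE 0.14, FDR 0.963). The median logFC of the core list was -0.07, -0.05, 0.06 and 0.01 in these 4 contrasts, and that of all genes was 0.01, 0.03, -0.01 and -0.02. In the interaction within females the list genes with the smallest p-values were *Bhlhe41* (2.75, SE 0.53, FDR 0.157), *Cipc* (1.46, SE 0.31, FDR 0.315), *Cry2* (1.59, SE 0.35, FDR 0.355) and *Nfil3* (-3.41, SE 0.79, FDR 0.431), none past the threshold.

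Depth and tissue makeup were compared with the index over the 24 libraries in 12 relations, with 2-sided permutation tests (100000 resamples) and Benjamini-Hochberg adjustment. The largest was that of pancreas acinar markers, with Pearson's r of -0.42 (permutation p = 0.039, adjusted 0.408) and Spearman's rho of -0.41 (permutation p = 0.0461, adjusted 0.553), and r was -0.37 without the 2 libraries farthest from the median. Their summed level ran from 0 to 35.3 CPM. Ileal markers had r = 0.35 (permutation p = 0.089, adjusted 0.408) and rho = 0.30 (permutation p = 0.159, adjusted 0.630), with r = 0.35 without the 2 farthest. Reads on genes had r = 0.04 (permutation p = 0.856, adjusted 0.903) and rho = 0.07 (permutation p = 0.727, adjusted 0.969), with r = -0.05 without the 2 farthest. None of the 12 passed the adjusted threshold, and the part of these features in the member levels was not tested.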

How the data were processed

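Counts of reads per gene were deposited by the authors for 24 libraries as 1 table. Per the labels and the study's methods, rRNA-depleted RNA was sequenced, reads were trimmed with Trimmomatic 0.39 and aligned with STAR 2.5.3a to GRCm38. The annotation release and the strand counted are not given in the sources used here. Lines of unmapped, multimapping, unassigned and ambiguous reads (at most 46.9%, 9.74%, 28.2% and 12.6%) were left out. Symbols were found for 55450 of 55536 identifiers.

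Genes were kept by filterByExpr on group, scaled by TMM and tested with edgeR 4.0.16 (R 4.3.3) quasi-likelihood F tests with Benjamini-Hochberg adjustment, in a fit of group, sex and replicate number over all 24 libraries with 17 residual degrees of freedom. Log2 CPM used a prior count of 1. DESeq2 1.42.0 and limma 3.58.1 were alternatives. On simulated data the fit called 62.3% of genes changed by 1 log2 unit in HFD vs. CD, and 98% of those changed by 2. Of these calls 5.34% and 1.51% were unchanged genes. It called 51.0% of genes with a slope of 0.2 per unit of index and 93.5% at 0.4, with 0.980% and 5.08% of the calls unchanged. In the interaction within females it called 64.6% of genes changed by 2 log2 units, with 5.97% of the calls unchanged. Changes of these sizes could thus be missed. The replicate number was not taken to pair libraries, since not every pair was over 0.1: over 72 same-number pairs from different groups the correlation of deviations had a mean of 0.17, a lowest value of -0.55 and 41 above 0.1, beside a mean of -0.09 and 40 of 144 above 0.1 for other pairs. The number was kept as a term because the study's methods use a sequencing block. Labels give each library as a biological replicate.

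Named genes were the 10 members, the called genes and the 4 smallest p-values of 2 clock lists, and the 5 genes most and least like the index. The members and lists were chosen with earlier results of these data known. Intervals and floors cover counting error only.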

Additional observations from a re-analysis of the deposited data

Results flagged for a closer look

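In 44 sets of 6 libraries (the 10 members and the index in 4 groups), 1 sample stood far from its group. Chance alone gives about 1 in 20 sets, so this is not more than chance gives, and the sets share libraries. The sample was *Dbp* in HFDmetf M1, at 4.30 CPM beside 25.8 CPM in the next lowest library of its group. The gap was 0.698 of the whole range in log2 CPM.

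In the animals labelled female, every CDmetf library moved one way from the CD libraries and every HFDmetf library the opposite way from the HFD libraries. For the clock phase index the metformin difference on HFD minus that on CD was -6.785, and this difference was not tested for the index, which is a score over the members. For single members it was -3.735 for *Arntl*, -2.846 for *Npas2*, 4.927 for *Per3*, 2.468 for *Nr1d2*, 4.479 for *Dbp* and 4.227 for *Hlf* in log2 units. In the edgeR fit 0 of 13505 genes passed an FDR of 0.05 for this interaction in females, with 884 at an unadjusted p under 0.05, while DESeq2 called 33, limma-voom 2 and edgeR without a filter on low counts 63. There are 3 animals in each of these groups.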

How the results depend on the processing

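The 4 group contrasts and the diet by metformin interaction gave 0 called genes in every alternative but DESeq2, which called 12 genes in HFD vs. CD, 4 in CDmetf vs. CD and 4 in the interaction. DESeq2 also called 22 genes for male vs. female, 4036 for the replicate number, 620 for replicate 2 vs. 1, 2324 for 3 vs. 2, 68 for sex by replicate number, 82 for the phase index, 33 for the interaction in females and 16 for its difference between the sexes. Limma-voom called 4137 for the replicate number, 4032 for 3 vs. 1, 1801 for 3 vs. 2, 41 for the index and 2 for the interaction in females. With no filter on low counts 15 genes were called for male vs. female, 38 for sex by replicate number, and 63, 1 and 20 for the interaction in females, in males and its difference. With at least 10 counts in every library, 129 were called for replicate 2 vs. 1, 1 for sex by replicate number and 1 for the interaction in females. Without CD M3, HFD M2 and HFD F2, 8 were called for male vs. female, 4007 for the replicate number, 64 for 2 vs. 1 and 2857 for 3 vs. 2. The alternatives chosen after seeing the data gave 8 for male vs. female with the sex of HFD M2 and HFD F2 exchanged, and 0 for 2 vs. 1 and 681 for 3 vs. 2 with the index as a covariate. The cause of these moves was not tested. Counts for the index leave out the members, but the members were part of each adjustment. The span of the index was 10.1 log2 units with *Arntl* and *Dbp* alone, in place of 5.98.

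Leaving out 1 library at a time gave 0 to 8 genes for male vs. female, 1213 (without HFDmetf F3) to 4006 (without CD M3) for the replicate number, 0 to 681 for 2 vs. 1, 1360 to 3142 for 3 vs. 1, 148 to 3058 for 3 vs. 2, 0 to 258 for sex by replicate number, 8 (without HFDmetf M1) to 29 for the index, and 0 to 2, 0 to 1 and 0 to 4 for the interaction in females, in males and its difference. The pairing of libraries by number was not established; without the replicate block 28 genes were called for the index and 0 in each group contrast, and with a replicate block within sex 0. With libraries as shallow as 1829690 reads on genes, *Dbp* and *Ciart* rest on 2 or 3 reads in single libraries.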
